A study of Mus musculus with 32 samples.

Results

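The heat shock and chaperone genes described here are Hspa1a, Hspa1b, Hsph1, Dnajb1, Hsp90aa1, Hspb1, Hspa8, Bag3, Hspa5 and Hsf1. They were taken from the gene count table by gene symbol, a choice made with earlier results of these data known, and make up 10 of its 32285 genes. RNA was sequenced from 32 whole bladders of female C57BL/6 mice from an aging colony, so muscle, urothelium, connective tissue and immune cells were measured together. Young mice were 2 months old (n = 6 bladders), middle-aged mice 10 months (n = 5) and untreated old mice 26 months (n = 6). Another 3 groups of old mice, also taken at 26 months, received a monthly course of gavage, 3 days in a row, between the ages of 21 and 26 months, with water (n = 5), with the vehicle of Phosal 50 PG, PEG-400 and ethanol (n = 4), or with D+Q (n = 6). D+Q is a senolytic combination, here dasatinib at 5 mg/kg/day and quercetin at 50 mg/kg/day in that vehicle. As far as the labels state, the groups differed only in age and gavage.

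Chaperones bind unfolded or misfolded proteins and help them to fold, to reassemble or to be degraded. In the cytosol the HSP70 and HSP90 families do most of this work together with co-chaperones that bring the client protein in or release the nucleotide, while in the endoplasmic reticulum (ER) the HSP70 protein BiP, encoded by Hspa5, serves secreted and membrane proteins. The cytosolic genes are induced by heat shock factor 1 (HSF1), which binds repeats of the 5-base unit nGAAn in their promoters, and Hspa5 is induced by the unfolded protein response through the ER stress element. The bladder wall stretches and contracts and its lining is exposed to urine, and small heat shock proteins such as HSPB1 are known to be abundant in smooth muscle.

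Promoters are shown because they let the letters of both elements be read beside the genes' behavior. RefSeq promoter sequence (GRCm38.p6, the patch release of the mm10 build used for the counts) was found for 7 of the 10 genes. In the 250 bases before the start site, heat shock elements of 2 adjoining units (GAANNTTC or TTCNNGAA, each its own reverse complement, so both strands are covered) were searched, together with the 3-unit element, GAANNTTC followed by NNGAA, which contains the 2-unit one, and the ER stress element, CCAAT and CCACG with 9 bases of any kind between them, all on both strands. Capitals mark the matches. The promoter of Hspa1a (chr17:34972157-34972406, minus strand), an inducible HSP70, and that of Hspb1 (chr5:135887669-135887918, plus strand) are given whole, and 30 bases around the match are given for Hsph1 (chr5:149636351-149636380, minus strand) and Hspa5 (chr2:34772020-34772049, plus strand), where the RefSeq start lies inside the gene as the annotation of the counts draws it.
Hspa1a: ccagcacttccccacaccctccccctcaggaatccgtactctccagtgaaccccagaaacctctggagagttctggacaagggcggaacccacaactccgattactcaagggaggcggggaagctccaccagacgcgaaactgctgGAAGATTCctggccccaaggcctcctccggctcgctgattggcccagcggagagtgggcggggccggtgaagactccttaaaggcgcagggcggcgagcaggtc
Hspb1: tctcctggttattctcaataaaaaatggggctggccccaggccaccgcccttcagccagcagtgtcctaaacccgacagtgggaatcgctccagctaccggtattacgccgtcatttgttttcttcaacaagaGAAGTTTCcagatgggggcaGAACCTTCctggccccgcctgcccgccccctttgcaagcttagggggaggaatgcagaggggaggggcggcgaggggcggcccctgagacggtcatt
Hsph1: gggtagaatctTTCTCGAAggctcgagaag
Hspa5: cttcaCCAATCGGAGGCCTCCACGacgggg
The element of Hspa1a, GAAGATTC, began 104 bases before the start site. Hspa1b carried the same element at the same distance, and its promoter was identical to that of Hspa1a at 247 of 250 bases. Hspb1 carried GAAGTTTC 117 bases and GAACCTTC 97 bases before the start, and Hsph1 carried TTCTCGAA 33 or 54 bases before its start, depending on which of its RefSeq starts was used. No 2-unit element was found in the windows of Dnajb1, Bag3 and Hspa5, and the 3-unit element was found in none of the 7 genes. Across all genes of the promoter table, 14.5% of 27025 had a 2-unit element in this window and 0.514% the 3-unit element, so the 2-unit letters alone are common. The ER stress element was rarer, in 35 genes or 0.13%, and Hspa5 carried it 65 bases before the start. Of the 18 genes of a list of ER chaperones and unfolded protein response genes, 16 had a promoter in the table and 6 of these held the element, namely Calr, Canx, Creld2, Dnajc3, Hsp90b1 and Pdia6. These matches describe letters and not bound sites. Hsp90aa1, Hspa8 and Hsf1 are named only.

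Each bladder had between 15088372 and 52650259 counts on genes, with a median of 34074787, and the 10 genes had at least 315 counts in every bladder. Defining markers matched the labelled tissue, since the summed level of 7 smooth muscle genes lay between 24382 and 39157 CPM (counts scaled to a common library size) and that of 8 urothelial genes between 3904 and 5189.8 CPM. CPM values were scaled by the trimmed mean of M values (TMM), and the scaling factors lay between 0.948 and 1.03. The labels list each library as a bladder of its own. Mice were group housed, and which of them shared a cage or litter is not stated, so p-values take the bladders as independent. In whole tissue, fewer cells of a type and less RNA per cell cannot be told apart.

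Levels were compared in TPM (counts per base scaled to a common sum) over the 32 bladders. The bases were the annotated exon bases of each gene, as deposited with the counts. They exceed the transcript length for Hsf1 (7099 against 2104), Hsph1 (7266 against 3802) and Hspa8 (4301 against 2394), among others. They equal it for Hspa1a (2967) and Hspa1b (2803), so the order depends on the lengths used. By this measure the constitutive HSP70 Hspa8 stood at the top of the 10 genes at 788 ± 52.5 TPM (SD, n = 32). The small heat shock protein gene Hspb1 followed at 722 ± 69.9 TPM, Hspa5 at 318 ± 46.0 TPM and Hsp90aa1, the stress-inducible cytosolic HSP90, at 212 ± 19.6 TPM. Bag3 was at 140.0 ± 12.8 TPM, Hspa1b at 102 ± 18.6 TPM, Dnajb1 at 62.2 ± 6.64 TPM, Hsph1 at 47.5 ± 4.54 TPM, Hsf1 at 28.6 ± 1.46 TPM and Hspa1a at 24.2 ± 4.17 TPM. Between neighbors in this order the ranges over bladders overlapped, with 2 exceptions. The lowest Hspb1 level, 604 TPM, was above the highest Hspa5 level, 443 TPM. Likewise, the lowest Hsph1 level, 38.6 TPM, was above the highest Hsf1 level, 31.5 TPM. This second separation depends on the annotated lengths of Hsph1 and Hsf1, which exceed their transcripts by unlike amounts. It was not examined with transcript lengths. The part of the HSP70 message held by inducible genes can be given only roughly. It depends on the lengths used and on reads shared with other genes, described below. Other HSP70 genes such as Hspa2 were left out. In TPM the inducible genes Hspa1a and Hspa1b together held the smaller part beside Hspa8. Their share of the summed TPM of Hspa1a, Hspa1b and Hspa8 averaged 14.4% ± 3.16 in young (SD, n = 6), 14.2% ± 0.973 in middle-aged (n = 5), 13.3% ± 0.925 in untreated old (n = 6), 13.9% ± 2.89 in water-treated (n = 5), 12.5% ± 0.46 in vehicle-treated (n = 4) and 13.9% ± 1.30 in D+Q-treated bladders (n = 6).

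The genes varied little from bladder to bladder. The ratio of the highest to the lowest CPM over all 32 bladders ran from 1.27 for Hsf1 to 2.44 for Hspa1a. On the log2 CPM scale the SD of Hsf1 was 0.07, and 95.8% of the 18117 genes kept for this comparison had a larger one, whereas the median gene had an SD of 0.19. Hspa1b (SD 0.25), Hspa1a (0.24) and Hspa5 (0.21) were the 3 members above that median. The plot of levels by group shows these ranges for each gene.

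**Figure D1:**
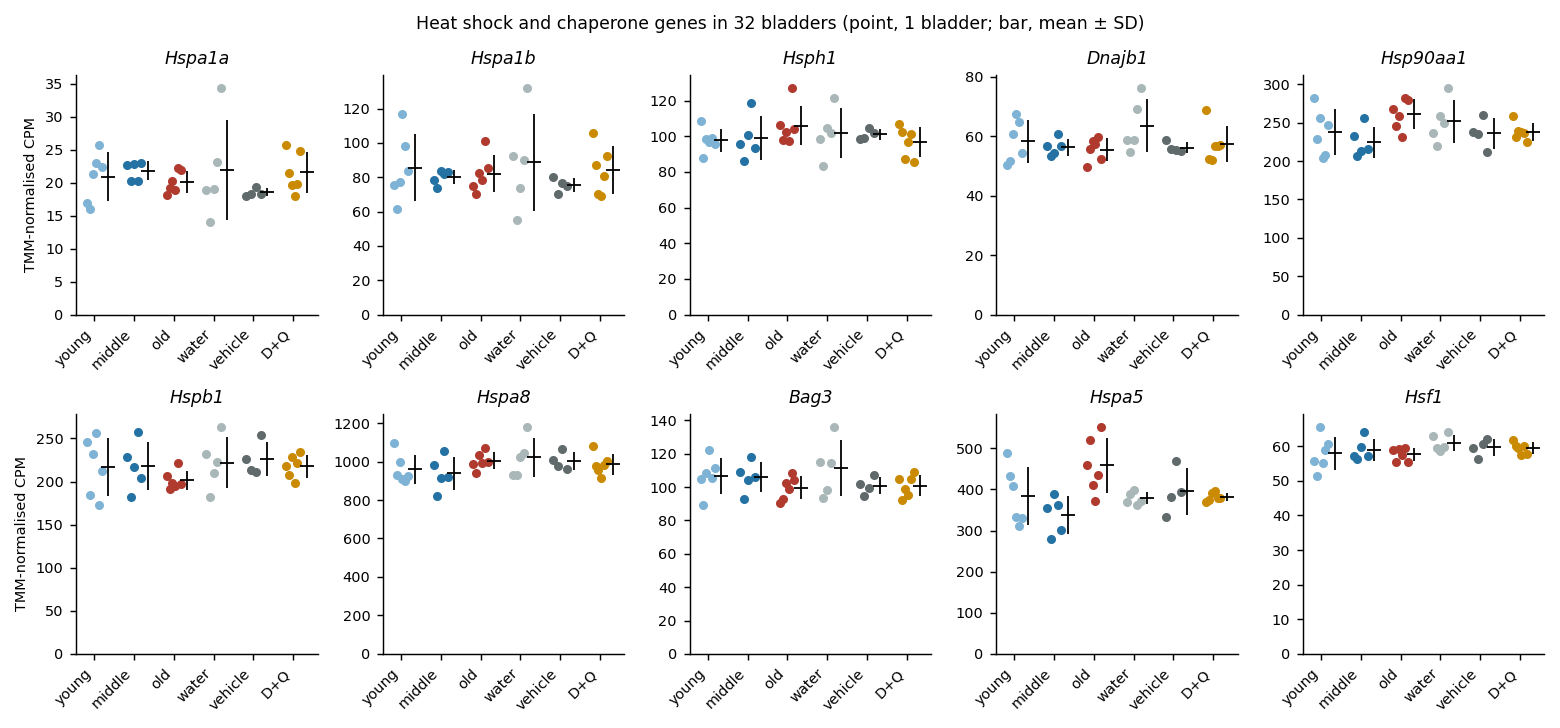
TMM-normalized CPM (y axis, from 0) of the 10 genes in each group (x axis); each point is 1 bladder and each bar the mean ± SD. Untreated old bladders lie highest for Hspa5, between 372 and 551 CPM, and 1 water-treated bladder stands at the top for Hspa1a at 34.3 CPM and for Hspa1b at 132 CPM.

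Hspa5 (ENSMUSG00000026864, chr2:34771970-34777547, plus strand) encodes BiP, the main HSP70 chaperone of the ER and a sensor partner of the unfolded protein response. In untreated old bladders it ranged from 372 to 551 CPM with a median of 448 CPM, and in the 5 middle-aged bladders it was at 356, 278, 389.7, 363 and 300.4 CPM. The lowest untreated old bladder fell below the highest middle-aged one, so the groups overlapped, and the other 5 untreated old bladders were above every middle-aged bladder. Young bladders covered 311 to 488 CPM with a median of 369.6 CPM, which spans the upper part of the middle-aged range and much of the old range. Water-treated bladders were at 370.4, 389.7, 399, 363 and 373 CPM, vehicle-treated ones at 333, 383, 470.4 and 394 CPM, and D+Q-treated ones ranged from 369 to 396 CPM with a median of 380.1 CPM. The SD of Hspa5 was 67.5 CPM in untreated old bladders. It was 56.7 CPM with vehicle, 14.9 CPM with water and 10.2 CPM with D+Q. Middle-aged bladders had an SD of 46.4 CPM, and for young bladders this was 70.3 CPM.

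Hsp90aa1 (ENSMUSG00000021270, chr12:110690605-110702728, minus strand) ranged from 232 to 282 CPM in untreated old bladders with a median of 263 CPM. The middle-aged bladders were at 233, 206, 213, 256 and 215 CPM, and the groups overlapped, with 4 of the 6 untreated old bladders above all middle-aged ones. Young bladders covered 204 to 282 CPM with a median of 238 CPM. Water-treated bladders were at 237, 220.1, 258, 249.7 and 295 CPM, vehicle-treated ones at 238, 235, 260.4 and 211 CPM, and D+Q-treated ones ranged from 224 to 259 CPM with a median of 237 CPM. Hspa8 (ENSMUSG00000015656, chr9:40800984-40810087, plus strand), the HSP70 that cells make without stress, covered 939 to 1069 CPM in untreated old bladders and was at 979.9, 821, 916, 1056 and 918 CPM in the middle-aged ones. Both groups of Hspa8 values overlapped, as did the remaining groups, which lay between 900.0 and 1177 CPM.

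The inducible HSP70 genes Hspa1a (ENSMUSG00000091971, chr17:34969190-34972156, minus strand) and Hspa1b (ENSMUSG00000090877, chr17:34956436-34959238, minus strand) are neighbors on chromosome 17 that encode nearly the same protein. Hspa1b was at 78.7, 73.7, 83.8, 82.1 and 83.0 CPM in middle-aged bladders and covered 70.5 to 101 CPM in untreated old ones with a median of 80.5 CPM. Hspa1a was at 22.7, 20.3, 22.9, 20.2 and 23.0 CPM in middle-aged bladders and covered 18.1 to 22.2 CPM in untreated old ones with a median of 19.7 CPM. The middle-aged and untreated old ranges overlapped for both genes. The widest spread was among the water-treated bladders, where Hspa1b was at 92.1, 55.3, 73.7, 90.0 and 132 CPM and Hspa1a at 18.9, 14.1, 19.0, 23.2 and 34.3 CPM. In both genes the lowest and highest of these values came from the same bladders, replicates 2 and 5. Vehicle-treated bladders lay close together, at 80.1, 70.3, 76.9 and 75.2 CPM for Hspa1b and 18.02, 18.3, 19.4 and 18.3 CPM for Hspa1a.

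The split between this gene pair is uncertain. Of the 75-base windows of the Hspa1a transcript, 61.7% also occur in transcripts of other genes, 1524 of its 2893 windows in Hspa1b, and how the counting treated such reads is not given in the sources used here. The ratio of Hspa1b to Hspa1a CPM lay between 3.47 and 5.08 in the 32 bladders with a median of 3.88. Hspa1a also shares 564 of its 2967 exon bases with Gm20481 on the other strand, a gene listed at 0 counts in these bladders. Windows shared with pseudogenes or related genes made up 68.6% of the Hspa8 transcript, 53.1% of Hsp90aa1 and 47.3% of Hspb1. The levels of these genes may thus depend on how shared reads were counted. The share of windows does not measure the size of that uncertainty. Hsph1, Dnajb1, Bag3, Hspa5 and Hsf1 had no shared window.

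The co-chaperones spread less over the bladders than Hspa1a and Hspa1b, and about as much as Hspa8 and Hsp90aa1. Dnajb1 (ENSMUSG00000005483, chr8:83608193-83612653, plus strand) encodes an HSP40 that delivers clients to HSP70 and starts its ATPase cycle, Hsph1 (ENSMUSG00000029657, chr5:149614287-149636376, minus strand) an HSP110 that releases ADP from HSP70, and Bag3 (ENSMUSG00000030847, chr7:128523616-128546981, plus strand) a further exchange factor that guides clients to autophagy in muscle. In untreated old bladders Dnajb1 covered 49.5 to 59.7 CPM, Hsph1 97.4 to 127 CPM and Bag3 90.6 to 109 CPM. In middle-aged bladders Dnajb1 covered 53.4 to 60.6 CPM, Hsph1 85.9 to 119 CPM and Bag3 92.8 to 118 CPM, so that each overlapped. Over all 32 bladders the highest level was 1.54 times the lowest for Dnajb1, 1.53 times for Hsph1 and 1.52 times for Bag3, against 2.44 times for Hspa1a, 2.38 times for Hspa1b, 1.43 times for Hspa8 and 1.45 times for Hsp90aa1.

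Hspb1 (ENSMUSG00000004951, chr5:135887919-135889563, plus strand) encodes a small heat shock protein that holds unfolded proteins without ATP and binds actin. It was at 228, 183, 217, 258 and 204 CPM in middle-aged bladders, covered 191 to 221 CPM in untreated old ones with a median of 198 CPM, and was at 226, 213, 211 and 254 CPM in vehicle-treated ones. These groups overlapped. Hsf1 (ENSMUSG00000022556, chr15:76477422-76501913, plus strand), which encodes the factor itself, stayed between 51.3 and 65.4 CPM in all 32 bladders. HSF1 is known to be controlled mostly at the level of the protein, which these libraries did not measure.

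To test what differed with age, untreated old bladders were compared with middle-aged ones by edgeR's quasi-likelihood test with Benjamini-Hochberg adjustment over all genes tested. Hspa5 and Hsp90aa1 rose. Hspa5 was 0.47 higher on the log2 scale (SE 0.11, adjusted p = 0.00799), a 1.38-fold level (95% interval 1.17 to 1.63), and Hsp90aa1 was 0.24 higher (SE 0.06, adjusted p = 0.0144), a 1.18-fold level (95% interval 1.08 to 1.30). These 2 of 10 stood against a background of 24.0% of 17156 genes called in this comparison (4110), or 13.0% called higher (2231), so the share called among the 10 was near that of all genes. The same 2 genes had an unadjusted p under 0.05, against 35.8% of all genes. The call of Hsp90aa1 was lost with the replicate number as a block (0.22, adjusted p = 0.0612), though not with the number in the bladder's name as the block (0.24, adjusted p = 0.00629).

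The other 8 genes did not pass. The heat-inducible set gave log2 fold changes of -0.09 for Hspa1a, 0.06 for Hspa1b, 0.00 for Dnajb1, -0.09 for Hspb1, 0.12 for Hsph1 and -0.06 for Bag3. Hspa8 was at 0.12 and Hsf1 at -0.01. The 95% intervals of these 8 genes ran at most from -0.24 for Hspb1 to 0.30 for Hsph1, which corresponds to 0.846-fold and 1.23-fold, so larger changes lay outside them. The summed counts of Hspa1a and Hspa1b, most of them from Hspa1b, gave 0.02.

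No gene of the 10 passed between young and middle-aged bladders, where 10.8% of 16754 genes were called, nor between young and untreated old ones, where 25.1% of 16873 genes were called (edgeR's quasi-likelihood test). An unadjusted p under 0.05 was also reached by 0 of the 10, against 27.2% and 36.3% of all genes in these comparisons, and DESeq2 and limma called 0 of the 10. Hspa5 was 0.19 lower in middle-aged than in young bladders (SE 0.12, adjusted p = 0.334) and 0.26 higher in untreated old than in young ones (SE 0.12, adjusted p = 0.148). Young replicates 1, 2 and 3 had Hspa5 at 488, 432 and 407 CPM, and young replicates 4, 5 and 6 at 332, 311 and 331 CPM. Without young replicate 1 the difference between untreated old and young bladders was 0.34 and was called (adjusted p = 0.0498). Hsp90aa1 was 0.14 higher in untreated old than in young bladders (SE 0.08, adjusted p = 0.232), and Hsf1 differed by 0.00 (95% interval -0.11 to 0.11).

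**Figure D2:**
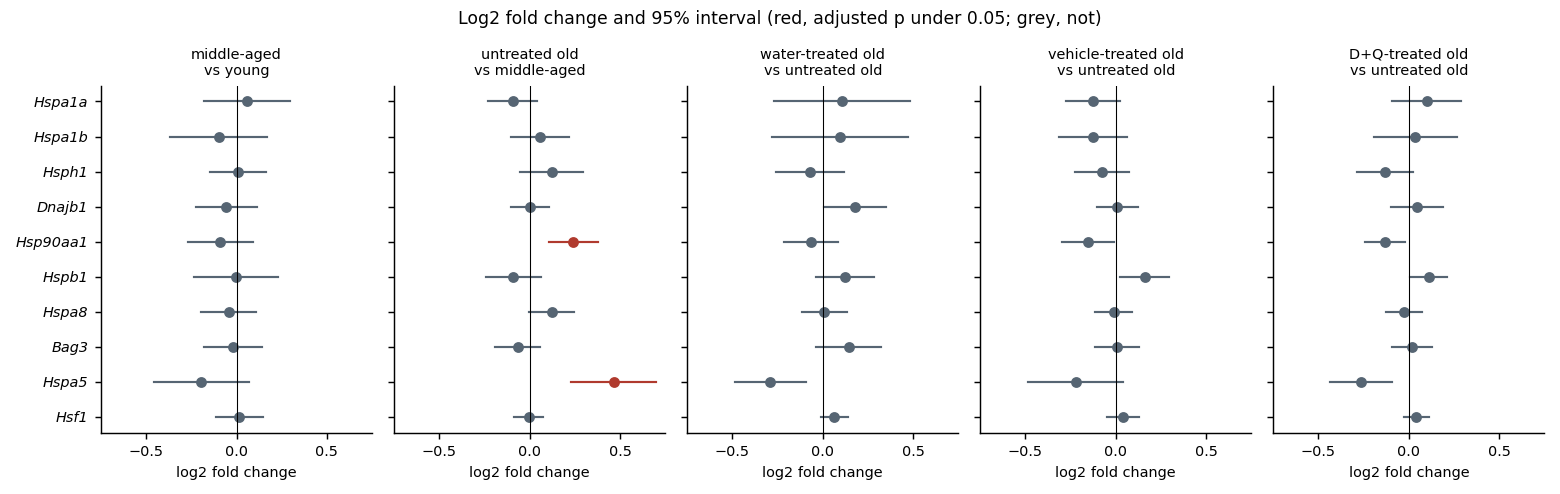
Log2 fold change (x axis) and 95% interval of the 10 genes (y axis) in 5 comparisons by edgeR's quasi-likelihood test, red where the adjusted p is under 0.05 and grey where not. Hspa5 at 0.47 and Hsp90aa1 at 0.24 between untreated old and middle-aged bladders are the only red points, and the Hspa5 points lie below 0 in all 3 comparisons of gavaged with untreated old bladders, which share the same 6 control bladders.

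To ask whether D+Q altered these genes, the gavaged old groups were compared with untreated old bladders and with each other. No gene of the 10 passed between D+Q-treated bladders and untreated old ones, where 0% of 17037 genes were called. At an unadjusted p under 0.05 there were 3 genes of the 10, against 12.9% of all genes, namely Hspa5 (-0.26, SE 0.08, adjusted p = 0.281), Hsp90aa1 (-0.13, SE 0.05, adjusted p = 0.337) and Hspb1 (0.11, SE 0.05, adjusted p = 0.362). DESeq2 and limma also called 0 of the 10. The 95% intervals of the 10 genes ran at most from -0.44 for Hspa5 to 0.29 for Hspa1a. Against vehicle-treated bladders, the comparison that holds the vehicle constant, 0% of 17267 genes were called, and Hspa5 differed by -0.05 (95% interval -0.22 to 0.13). In this comparison 4.18% of all genes had an unadjusted p under 0.05, and of the 10 genes Hspa1a alone did (0.23, SE 0.10, edgeR adjusted p = 0.994). Against water-treated bladders 0% of 17161 genes were called, none of the 10 genes had an unadjusted p under 0.05, against 7.82% of all genes, and Hspa5 differed by 0.02 (95% interval -0.06 to 0.10).

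The control gavages gave Hspa5 values on the same side. Against untreated old bladders Hspa5 was at -0.29 in water-treated bladders (SE 0.09, adjusted p = 0.148) and at -0.22 in vehicle-treated ones (SE 0.12, adjusted p = 0.62), beside -0.26 with D+Q. These 3 comparisons share their 6 control bladders, so they are not independent of each other. In the water comparison 1.0% of 17250 genes were called and 0 of the 10. DESeq2 called Hspa5 there (-0.29, adjusted p = 0.0309), limma called 0 of the 10, and 2 genes of the 10 had an unadjusted p under 0.05 in edgeR's test (Hspa5 and Dnajb1, the latter at 0.18, SE 0.08, adjusted p = 0.292), against 16.0% of all genes. In the vehicle comparison 0% of 17440 genes were called. There 2 of the 10 had an unadjusted p under 0.05, Hspb1 (0.16, SE 0.06, adjusted p = 0.541) and Hsp90aa1 (-0.15, SE 0.07, adjusted p = 0.575), against 8.39% of all genes, and DESeq2 and limma called 0 of the 10.

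The wider chaperone network was examined with lists that leave out the 10 genes. Most ER chaperones and unfolded protein response genes rose, as Hspa5 did, between middle-aged and untreated old bladders. Of 18 such genes 15 rose and 0 fell, where 24.0% of all genes were called, with a median log2 fold change of 0.31 against 0.00 over all genes tested. The 3 with the smallest adjusted p were Sdf2l1, a cofactor of BiP (0.88, adjusted p = 0.000757), Edem1, which takes misfolded glycoproteins to degradation (0.64, adjusted p = 0.00314), and Xbp1, a transcription factor of the unfolded protein response (0.49, adjusted p = 0.00371). The 3 that did not pass were Canx (0.08), Herpud1 (0.13) and Ddit3 (-0.12). Against young bladders 7 of the 18 were higher and 1 lower in untreated old ones, where 25.1% of all genes were called. Between young and middle-aged bladders 0 were higher and 2 lower, a share near the 10.8% of all genes called there, and on leaving out 1 bladder this count ran from 1 to 5. In the D+Q comparison with untreated old bladders 0 of 18 passed and the median was -0.15, in the water comparison 0 passed and the median was -0.18, and in the vehicle comparison 0 passed and the median was -0.09.

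The other chaperone lists held few called genes. Calls went in both directions in the cytosolic and small heat shock protein lists and only down in the mitochondrial list. Of 18 cytosolic chaperones and HSF1 targets 2 rose in untreated old against middle-aged bladders, Dnaja1 (0.14), another HSP40, and Chordc1 (0.15), an HSP90 co-chaperone, and 2 fell, among them Hspa2 (-0.24), an HSP70 best known from the testis. These 4 of 18 were near the 24.0% of all genes called in this comparison, the list median was -0.01, and the count ran from 0 with all 6 groups in 1 fit to 6 with DESeq2. Of 5 small heat shock protein genes tested Hspb7 rose (0.50) and Hspb6 fell (-0.17), both of them muscle members of the family. None of 8 subunits of the cytosolic chaperonin TRiC passed. Of 8 mitochondrial chaperones and proteases 0 rose and 3 fell, Trap1 (-0.12), Lonp1 (-0.11) and Clpp (-0.15), where 24.0% of all genes were called in either direction. Among 3 other heat shock factor genes tested Hsf4 fell (-0.24), a call lost in 8 of the 11 fits that left out 1 bladder. Between young and middle-aged bladders Hsf4 was higher in the middle-aged (0.68, adjusted p = 0.00347), and the lower genes of these lists were Serpinh1, the ER collagen chaperone (-0.82), Dnaja1 (-0.16) and Hspb6 (-0.36). In the D+Q comparison with untreated old bladders 0 genes of any of these lists passed, and in the water comparison only Cct5, a TRiC subunit, did (0.13), a call also lost in 8 of the 11 fits that left out 1 bladder.

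**Figure D3:**
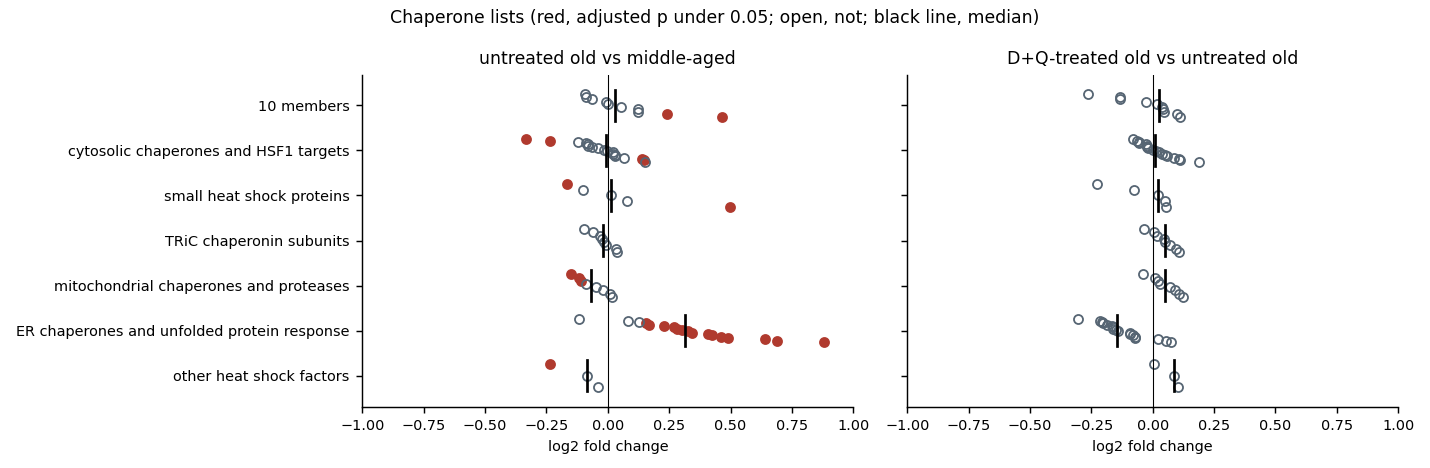
Log2 fold change (x axis) of each gene in the 10 members and 6 chaperone lists (y axis), in untreated old against middle-aged bladders (left) and D+Q-treated against untreated old bladders (right); red points have an adjusted p under 0.05, open points do not, and black lines are medians. The ER list stands to the right of 0 on the left panel, with a median of 0.31 and 15 of 18 genes red, and no point is red on the right panel.

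Immune cell genes rose between middle-aged and untreated old bladders, as Hspa5 and the ER list did. Plasma cells are rich in ER and in BiP. In this comparison 7 of 8 B and plasma cell genes rose, with a median log2 fold change of 4.30, all 4 T cell genes rose and 3 of 4 macrophage genes rose, where 24.0% of all genes were called. The exception among the B and plasma cell genes was Sdc1 (-0.02), which urothelium also expresses. In young bladders Sdc1 alone was at 267 to 369 CPM and made up nearly all of the summed level of the 8 genes, 273 to 372 CPM. The summed level of the other 7 was 2.69 to 6.34 CPM in young, 6.74 to 37.2 CPM in middle-aged, 182 to 904 CPM in untreated old, 202 to 487 CPM in water-treated, 46.1 to 741 CPM in vehicle-treated and 101 to 495 CPM in D+Q-treated bladders, and none of the 8 genes was at 0 throughout a group. From young to middle-aged bladders 4 of 8 B and plasma cell genes were called higher (median log2 fold change 1.37), where 10.8% of all genes were called. There Hspa5 was at -0.19, without passing, and the ER list median was -0.12. Jchain, which plasma cells use to join immunoglobulins, averaged 16.0 ± 11.3 CPM in middle-aged (SD, n = 5) and 285 ± 232 CPM in untreated old bladders (n = 6). In water-treated bladders, whose summed level of the 7 genes was within the untreated old range, Hspa5 was at 363 to 399 CPM. Young bladders had the lowest summed levels of the 7 genes. Their Hspa5 ran from 311 to 488 CPM with a median of 369.6 CPM, beside a median of 448 CPM in untreated old ones. Vehicle-treated replicate 1 had the lowest summed level of the 7 genes of all gavaged bladders, 46.1 CPM, and with it the lowest Hspa5 level of these, 333 CPM. The part of immune cells in the difference of Hspa5 with age was not tested.

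Within groups Hspa5 followed the ER list closely. With group means subtracted, log2 levels of Hspa5 and of the summed ER list gave Pearson's r = 0.922 (permutation p = 1e-05, the smallest that 100000 permutations can give, adjusted p = 4.5e-05 over 9 relations chosen after the values were seen) and Spearman's rho = 0.902 (adjusted p = 4.5e-05). Without the 2 bladders farthest out on the list r was 0.916. With the summed B and plasma cell genes other than Sdc1, r was 0.446 (permutation p = 0.0207, adjusted p = 0.0373) and rho 0.375 (adjusted p = 0.0979), and r was 0.410 without the 2 farthest bladders. The relation passed by Pearson's r and not by rho. Jchain weighed most in this sum, with a mean of 285 CPM in untreated old bladders. Mzb1, Ms4a1 and Cd79a averaged 22.4, 25.4 and 26.4 CPM there. With Sdc1 in the sum r was 0.394 (permutation p = 0.0461, adjusted p = 0.0692) and rho 0.280 (adjusted p = 0.222), and r was 0.209 without the 2 farthest bladders. Hsp90aa1 showed r = 0.031 with the 7 genes (permutation p = 0.867, adjusted p = 0.867) and rho = 0.012 (adjusted p = 0.947).

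**Figure D4:**
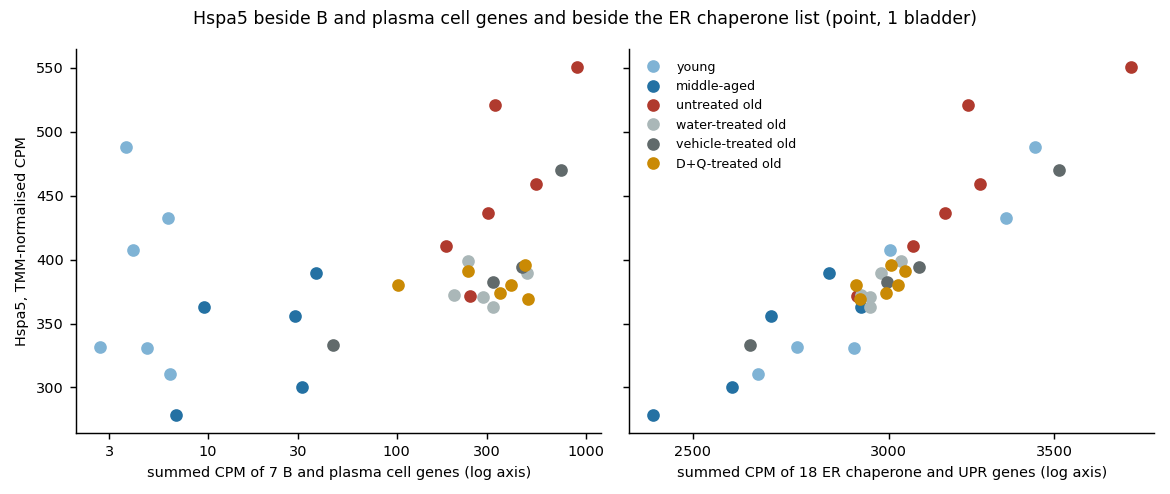
Hspa5 (y axis, TMM-normalized CPM) against the summed CPM of 7 B and plasma cell genes, Sdc1 left out (left, log x axis) and of 18 ER chaperone and unfolded protein response genes (right, log x axis); each point is 1 bladder, colored by group. Points rise together on the right panel. On the left panel all young bladders have low marker levels, and 3 of them reach 407 to 488 CPM of Hspa5. Young replicates 4, 5 and 6 lie at 332, 311 and 331 CPM.

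The 10 genes were next compared with each other across the 32 bladders, again with group means subtracted and 100000 permutations of bladders within groups. Of 45 pairs 21 passed at an adjusted p under 0.05, 20 of them positive, and 13 passed by Spearman's rank correlation. All pairs share libraries, and with them depth and tissue makeup. How many pairs of other genes would pass was not computed, so the count is a description and not a trait of these genes. The pairs are described in blocks that were drawn with these r values known. A first block held Hspa1a, Hspa1b, Dnajb1 and Bag3. Hspa1b was correlated with Bag3 (r = 0.826, rho = 0.732, adjusted p = 0.00015) and with Dnajb1 (r = 0.769, rho = 0.637, adjusted p = 0.000619), and r was 0.736 and 0.690 without the 2 farthest bladders. The r of 0.885 between Hspa1a and Hspa1b (rho = 0.813, adjusted p = 0.000337) is between genes that share reads. A second block joined Hsp90aa1 and Hspa8 (r = 0.819, rho = 0.755, adjusted p = 0.00015), Hsph1 and Hspa8 (r = 0.740, rho = 0.614, adjusted p = 0.000619) and Hsph1 and Hsp90aa1 (r = 0.681, rho = 0.592, adjusted p = 0.00054). Without the 2 farthest bladders these r were 0.744, 0.678 and 0.603.

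Between the blocks the r values were lower, as the blocks were drawn from them, and 4 of these 12 pairs passed. They were Hspa1b with Hsph1 (r = 0.596, rho = 0.389, adjusted p = 0.00848), Hsph1 with Bag3 (r = 0.564, rho = 0.360, adjusted p = 0.0171), Hspa8 with Bag3 (r = 0.528, rho = 0.416, adjusted p = 0.0357) and Hsph1 with Dnajb1 (r = 0.464, rho = 0.298, adjusted p = 0.0407). None of the 4 passed by rho. Hspa1b with Hsp90aa1 gave r = 0.196 (rho = 0.051, adjusted p = 0.439) and Dnajb1 with Hsp90aa1 r = 0.098 (rho = 0.077, adjusted p = 0.675). Hspb1, placed in neither block, was correlated with Bag3 (r = 0.772, rho = 0.702, adjusted p = 0.00015). It was also correlated with Hspa8 (r = 0.602, adjusted p = 0.0117), Hsph1 (r = 0.574, adjusted p = 0.00724) and Hspa1b (r = 0.529, adjusted p = 0.0312). With the first block Hspa5 gave r = -0.404 for Dnajb1 (rho = -0.424, adjusted p = 0.0474, adjusted p = 0.0729 for rho), -0.324 for Hspa1b (adjusted p = 0.0903), -0.267 for Hspa1a (adjusted p = 0.11) and -0.145 for Bag3 (adjusted p = 0.473). Its r was positive with the inducible genes Hsph1 (0.182, adjusted p = 0.357) and Hspb1 (0.178, adjusted p = 0.457). Among the 21 pairs Hspa5 was positively correlated only with Hsp90aa1 (r = 0.491, rho = 0.400, adjusted p = 0.0407, adjusted p = 0.11 for rho). Hsf1 was correlated with Hsph1 (r = 0.516, adjusted p = 0.00724) and Bag3 (r = 0.508, adjusted p = 0.0248), and with Hspa1a at r = 0.362 (adjusted p = 0.0996).

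**Figure D5:**
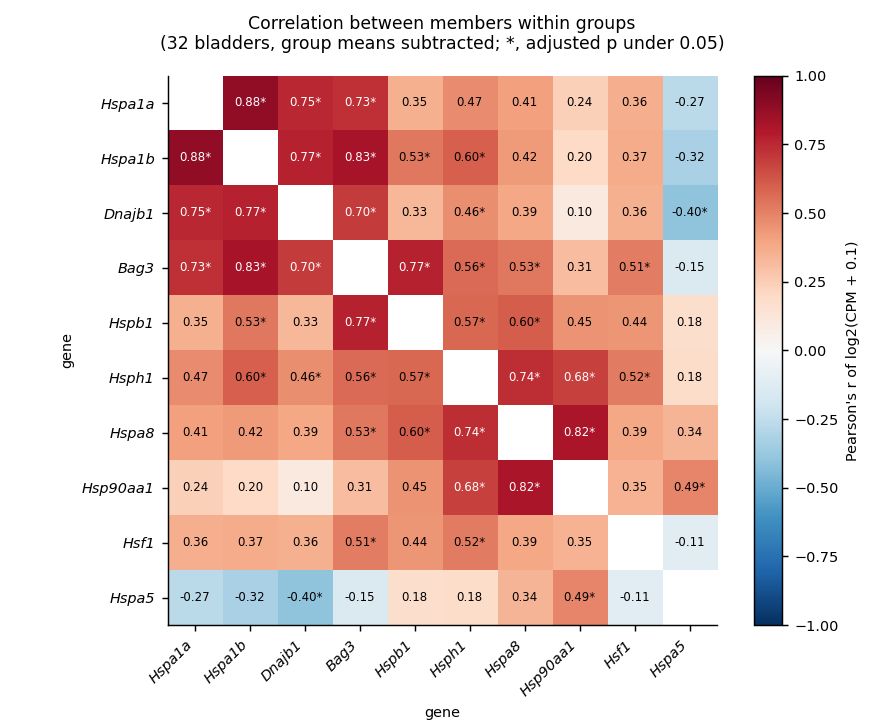
Pearson's r (color and number) of log2(CPM + 0.1) between each pair of the 10 genes (both axes) over 32 bladders after subtraction of group means; an asterisk marks an adjusted p under 0.05 by permutation. Hspa1a, Hspa1b, Dnajb1 and Bag3 have r of 0.70 to 0.88, and Hsph1, Hspa8 and Hsp90aa1 of 0.68 to 0.82. These blocks were drawn with the values known, and negative values occur only in pairs with Hspa5.

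The genes most like each member in this sense are given as a description, with Pearson's r over the 32 bladders after subtraction of group means. For Hspa5 they were Manf (0.942), Hsp90b1 (0.903) and Pdia6 (0.887), which encode proteins of the ER. For Hspb1 they were Pcp4l1 (0.861), Rras (0.859) and Tpm2 (0.850), the last a tropomyosin of muscle. For Dnajb1 they were the circadian repressor Cry2 (0.866), Cys1 (0.860) and St5 (0.846), and for Hspa1a the HSP40 gene Dnajb4 (0.736), Nedd4l (0.727) and Fam53c (0.725). Hspa1b was nearest to Nploc4 (0.777), Clip1 (0.772) and Axin1 (0.765), and Bag3 to Cltb (0.824), Fam129b (0.821) and Eif3b (0.820). Among the genes nearest to Hsp90aa1 were Mat2a (0.855) and Lrrfip1 (0.840). Hspa8 was nearest to Ywhah (0.833), Stk40 (0.831) and P4ha1 (0.810), and Hsph1 to Ptpn11 (0.771), Eif4g1 (0.765) and Stk40 (0.739). Hsf1 was nearest to Nle1 (0.806), Ecd (0.802) and Riox1 (0.743).

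Within groups, some members were correlated with cell type genes and with immediate early genes. Hspb1 was correlated with the summed smooth muscle genes (r = 0.821, rho = 0.775, adjusted p = 4.5e-05, permutation test) and with the summed urothelial genes (r = 0.540, rho = 0.593, adjusted p = 0.00618), and r was 0.767 and 0.614 without the 2 farthest bladders. Dnajb1 was correlated with the summed level of 14 immediate early genes (r = 0.565, rho = 0.545, adjusted p = 0.0245, permutation test), which are known to respond within minutes to handling and dissection, and r was 0.535 without the 2 farthest bladders. Hspa1b with the same genes gave r = 0.300 (rho = 0.195, adjusted p = 0.289). Between groups, 4 of the 14 immediate early genes rose in untreated old against middle-aged bladders, among them Dusp1 (0.93) and Nr4a1 (1.197). Of all genes 24.0% were called in that comparison, and 13.0% were called higher. When middle-aged replicate 3 or middle-aged replicate 4 was left out, 0 of the 14 rose. Dusp1 was lower in middle-aged than in young bladders (-1.49), while Dnajb1 differed by 0.00 and -0.06 in these comparisons. The part of tissue makeup or handling in the levels of Hspb1 and Dnajb1 was not tested.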

How the data were processed

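Total RNA of whole bladders was sequenced with a stranded total RNA kit. The authors aligned reads with STAR 2.7.3 to mm10 and counted them per gene with featureCounts from Subread, per the labels; whether counting used strand or shared reads is not given in the sources used here. The deposited counts held 32285 genes, and the deposited normalized table, in log2 units, equals the log2 of (count + 1) per gene length scaled to 100000 per bladder, from which TPM was computed. Gene lengths were deposited in the same file and entered TPM as the authors gave them.

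Counts were fitted for each of 8 comparisons with edgeR 4.0.16 (R 4.3.3) on the 2 groups alone, with filterByExpr, TMM factors, the quasi-likelihood test and Benjamini-Hochberg adjustment over all genes kept. All p-values are two-sided. Alternatives were DESeq2 1.42.0, other scaling and filters, 1 fit over 6 groups, limma 3.58.1 on log2 TPM, the replicate number as a block and leaving out each bladder. Correlations used log2(CPM + 0.1). Fits were tested on simulated data. The members, lists and relations were chosen with earlier results of these data known. The rule for names was all 10 members, the 3 called genes with the smallest adjusted p and the defining genes per list, and the 3 most like genes per member; further genes named with a count of 5 or fewer were chosen after their values were seen. Of the genes this rule gives, 2 are not reported here.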

Additional observations from a re-analysis of the deposited data

Results flagged for a closer look

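In 60 sets of values, 10 genes in 6 groups, 3 had 1 bladder far from the others of its group, where chance gives about 1 in 20. Hsph1 was at 127 CPM in untreated old replicate 5, while the other bladders of that group lay between 97.4 and 106 CPM. Dnajb1 was at 58.9 CPM in vehicle-treated replicate 1, while the others lay between 55.0 and 55.5 CPM, a gap that is small in size. Dnajb1 was at 68.9 CPM in D+Q-treated replicate 1, while the others lay between 52.1 and 57.2 CPM. That bladder also had the highest D+Q-treated values of Hspa1a, 25.6 CPM, and Hspa1b, 106 CPM.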

How the results depend on the processing

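The rise of Hspa5 between middle-aged and untreated old bladders was called under all 20 alternatives run (log2 fold change 0.40 to 0.52, adjusted p 0.000125 to 0.042), and that of Hsp90aa1 under 19 of 20 (0.19 to 0.28, adjusted p 0.00171 to 0.0612). The number of the 10 genes called went from 2 to 1 with the replicate block in that comparison, from 0 to 1 with DESeq2 between water-treated and untreated old bladders, and between young and untreated old bladders it ranged from 0 to 1 on leaving out 1 bladder. Of the 45 pairs 13 in place of 21 were called by Spearman's rank correlation. The cause of these changes was not tested. In none of 8 comparisons did every same-numbered pair correlate above 0.1 in its deviations from the group means (-0.294 to 0.154), the limit set for pairing. Of 40 such pairs 6 were above 0.1. A weaker pairing would not meet this limit, so it was not tested. The numbers in the bladders' names differ from the replicate numbers in 3 groups, and this pairing, added after the data were seen, gave -0.294 to 0.206 and did not meet that limit in any comparison either. As a block it left 2 of the 10 genes called in that comparison. Neither block changed another call of the 10 genes. The 15 called ER list genes became 11 to 16. The r of Hspa5 with the B and plasma cell genes passed on leaving Sdc1 out of the sum, which was also added after the data were seen.

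Counts over all genes moved by more than 1.5 times. Between young and middle-aged bladders 1811 genes became 2858 in 1 fit over 6 groups 716 with the block and 893 with the block by bladder number, and between middle-aged and untreated old ones 4110 became 2519 in 1 fit. Between untreated old and water-treated bladders 173 became 703 with DESeq2, 99 without a filter, and 0 in 1 fit, with limma or with either block. DESeq2 called 132 genes in the vehicle comparison, 180 in D+Q against untreated old, 10 against vehicle-treated and 69 against water-treated bladders, in place of 0, and the block called 1, or 2 by bladder number, in the last. Leaving out 1 bladder gave 728 to 2794 genes between young and middle-aged bladders, 37 to 199 between untreated old and water-treated ones, and 0 to 3 between D+Q-treated and water-treated ones.

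Of 80 log2 fold changes of the 10 genes, 35 that were not called and lay within 0.108 of 0 turned sign under some alternative. With DESeq2 the turned values were Hsf1 at -5e-04 (D+Q-treated against vehicle-treated), Hsph1 at -7e-04 (middle-aged against young). With size factors of DESeq2 in edgeR the turned values were Hsf1 at -0.0017 (D+Q-treated against vehicle-treated), Hsf1 at -0.001 (untreated old against young), Hsph1 at -7e-04 (middle-aged against young). With all 6 groups in 1 fit the turned values were Hsf1 at -0.0014 (untreated old against young), Hsph1 at -0.0045 (middle-aged against young). With limma on log2(TPM + 1) the turned values were Bag3 at -0.0119 (D+Q-treated against untreated old), Bag3 at -5e-04 and Hsf1 at -0.0047 (D+Q-treated against vehicle-treated), Bag3 at -0.0114 and Dnajb1 at -0.0089 (vehicle-treated against untreated old), Dnajb1 at -0.0452 (untreated old against middle-aged), Hsf1 at -0.0269 (untreated old against young), Hspa1a at 0.0036 and Hspa5 at -0.0116 (D+Q-treated against water-treated), Hspb1 at 0.0092 (middle-aged against young). With limma on log2(TPM + 0.1) the turned values were Bag3 at -0.012 (D+Q-treated against untreated old), Bag3 at -5e-04 and Hsf1 at -0.0049 (D+Q-treated against vehicle-treated), Bag3 at -0.0115 and Dnajb1 at -0.0089 (vehicle-treated against untreated old), Dnajb1 at -0.0459 (untreated old against middle-aged), Hsf1 at -0.0278 (untreated old against young), Hspa1a at 0.0053 and Hspa5 at -0.0117 (D+Q-treated against water-treated), Hspb1 at 0.0092 (middle-aged against young). With the replicate block the turned values were Bag3 at -0.0341 (D+Q-treated against vehicle-treated), Hsf1 at 0.0062 (untreated old against middle-aged), Hspa8 at 0.0096 (vehicle-treated against untreated old), Hsph1 at -0.0072 (middle-aged against young). With the block by bladder number the turned values were Dnajb1 at -0.0148 (untreated old against middle-aged), Hsf1 at -1e-04 (D+Q-treated against vehicle-treated), Hspa1a at 0.0527 (D+Q-treated against water-treated), Hspa8 at 0.0244 (vehicle-treated against untreated old), Hspb1 at 0.0237 (middle-aged against young). With Hspa1a and Hspa1b summed the turned values were Hspa1a at -0.0682 (middle-aged against young), Hspa1a at 0.0246 (untreated old against middle-aged). Leaving out 1 bladder turned other values, with these lowest and highest values. In middle-aged against young they were Hspa1a from -0.0107 to 0.1259, Hspa1b from -0.1788 to 0.0017, Hsph1 from -0.0621 to 0.0501, Hspb1 from -0.0658 to 0.051, Bag3 from -0.0664 to 0.0204 and Hsf1 from -0.0152 to 0.053. In untreated old against middle-aged they were Hspa1b from -0.009 to 0.0927, Dnajb1 from -0.0162 to 0.0333 and Hsf1 from -0.0217 to 0.0186. In untreated old against young they were Hspa1a from -0.1137 to 0.0154, Hspa1b from -0.1314 to 0.0548 and Hsf1 from -0.0305 to 0.037. In water-treated against untreated old they were Hspa1a from -0.1056 to 0.233, Hspa1b from -0.0882 to 0.224 and Hspa8 from -0.0424 to 0.041. In vehicle-treated against untreated old they were Dnajb1 from -0.0223 to 0.0268, Hspa8 from -0.0379 to 0.0031 and Bag3 from -0.0297 to 0.034. In D+Q-treated against untreated old they were Hspa1b from -0.0384 to 0.1041, Dnajb1 from -0.0131 to 0.0708 and Bag3 from -0.0084 to 0.0415. In D+Q-treated against vehicle-treated they were Dnajb1 from -0.0271 to 0.0612, Hsp90aa1 from -0.0349 to 0.0686, Hspb1 from -0.0812 to 0.0081, Hspa8 from -0.0491 to 0.014, Bag3 from -0.0211 to 0.034, Hspa5 from -0.124 to 0.0499 and Hsf1 from -0.0258 to 0.0183. In D+Q-treated against water-treated they were Hspa1a from -0.1375 to 0.2028, Hspa1b from -0.1904 to 0.1231, Hsph1 from -0.13 to 0.003, Hspb1 from -0.0811 to 0.0477 and Hspa8 from -0.0714 to 0.0126.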
